A study of Homo sapiens with 6 samples.

Results

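SR proteins, hnRNPs and the proteins of the small nuclear ribonucleoproteins (snRNPs) are the abundant RNA-binding proteins of pre-mRNA splicing. SR proteins bind exonic enhancers through their RNA recognition motifs and recruit the splicing machinery through domains rich in arginine and serine, whereas hnRNPs coat nascent transcripts and often repress nearby splice sites. The Sm proteins form the ring at the core of the spliceosomal snRNPs, the U1 proteins help to recognise the 5′ splice site, and the SF3A and SF3B complexes belong to the U2 snRNP, which binds the branch point. In colorectal cancer cells, as in other dividing cells, these genes are expressed at high level, and several SR and hnRNP genes regulate their own transcripts through alternative exons that a gene-level count cannot show.

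The genes described here are the protein-coding genes whose symbols begin with SRSF, HNRNP, SNRP, SF3A or SF3B, found by matching Ensembl identifiers to GENCODE release 29. They number 60 of the 79302 rows in the deposited table and comprise 12 SR protein genes, 27 hnRNP genes, 12 SNRP genes and 9 SF3A and SF3B genes. HNRNPUL2-BSCL2, a read-through of HNRNPUL2 into its neighbour, is counted among the hnRNP genes because its symbol begins so. Low counts removed 6 of the 60 genes before testing, and 54 were tested, with at least 33 counts in every library.

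RNA-seq counts came from HCT116, a human colorectal cancer cell line, in 3 libraries with a control shRNA (shCtrl) and 3 with an shRNA against GDPD5 (shGDPD5). GDPD5 encodes a glycerophosphodiester phosphodiesterase of lipid metabolism. By the study's methods all of these cells were a radioresistant derivative, selected over 25 rounds of 4 Gy, and RNA was taken 6 h after a dose of 4 Gy, so the controls were selected and irradiated as well, but the sample labels give only the line and the shRNA. No unirradiated or parental library was analysed here, the GDPD5 shRNA is not identified among the sequences tried, and separate cultures are not stated for the 3 libraries in either group, so that p-values measure the spread between these libraries, which may be technical.

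Library totals were 16715522 to 18510728 counts. Levels are given as CPM, the counts of a gene per 1000000 counts of its library after TMM scaling. GDPD5 itself was at 8.33, 11.6 and 9.75 CPM with shCtrl and at 5.44, 5.55 and 5.19 CPM with shGDPD5, a log2 fold change of -0.88 (SE 0.14, adjusted p = 0.000116). Of 8 colorectal epithelial markers 6 were tested and all 6 were called lower with shGDPD5 (adjusted p under 0.05), beside 30.1% of all genes. The groups overlapped in KRT8 (1069, 1193 and 1258 CPM against 1074, 1011 and 1075 CPM, adjusted p = 0.0304). The 8 markers summed to 3172 to 3612 CPM in shCtrl and 2526 to 2634 CPM in shGDPD5. VIL1 and LGALS4 had at most 10 counts in any library. Of 4 leukocyte markers CD68 alone was tested and was lower, the list summed to 6.41 to 11.0 CPM with shCtrl and 2.67 to 3.10 CPM with shGDPD5, PTPRC had 2 counts or fewer and CD3E 0. Of 5 fibroblast and endothelial markers COL1A1 alone was tested and was not called, the list summed to 19.2 to 21.6 CPM and 20.8 to 23.9 CPM, and DCN and LUM were at 0. A list of 15 G1/S genes was called higher throughout, 15 of 15, beside 29.7% of all genes. Its summed level went from 799.9 to 822.0 CPM in shCtrl to 2253 to 2272 CPM in shGDPD5. The share of mitochondrially encoded genes was 8.99% to 9.34% with shCtrl and 10.05% to 10.69% with shGDPD5. The part of these shifts in the results below was not tested. In these bulk libraries of a cell line, fewer cells of the line expressing a gene and less of its RNA per cell cannot be told apart.

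Most splicing protein genes were higher with shGDPD5. With calls made at an adjusted p under 0.05, 35 of the 54 tested genes were higher, beside 29.7% of all 16755 genes tested, and 5 were lower, beside 30.1% of all genes. Their median log2 fold change was 0.26, against 0.01 over all genes. The changes were mostly small: 3 of the 54 genes, SNRPA, HNRNPM and SF3A3, were called and differed by 1 or more on the log2 scale, beside 11.9% of all genes. SF3A3 lay at this limit, at 1.002, and ranged from 0.978 to 1.018 over the alternative settings, so it fell below 1 in some of them. In 37 of the 54 genes every shGDPD5 library lay above every shCtrl library (32.6% of all genes) and in 7 every shGDPD5 library lay below (32.4% of all genes).

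The classes had different medians and spreads. Of the SR protein genes 9 of 11 were higher and 1 was lower, with a median log2 fold change of 0.20. Of the hnRNP genes 11 of 23 were higher and 3 were lower, with a median of 0.17 and a range from -0.46 to 1.12. Of the SNRP genes 9 of 11 were higher and 0 were lower, with a median of 0.41, and of the SF3A and SF3B genes 6 of 9 were higher and 1 was lower, also with a median of 0.41. The hnRNP class, the largest, held the most genes that did not pass the test, 9 of 23. That share is near the one over all genes, 6749 of 16755. The difference between classes was not tested, since genes are not replicates.

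The summed level of the 60 genes was 13730 to 14000 CPM with shCtrl and 17180 to 17310 CPM with shGDPD5. As a share of all counts before TMM scaling it was 1.34% to 1.37% and 1.75% to 1.76%, a wider difference than in CPM. Within each library hnRNP transcripts made up most of this sum. They went from 9308 to 9483 CPM with shCtrl to 11640 to 11740 CPM with shGDPD5, a ratio of means of 1.24. SR protein genes went from 2173 to 2294 CPM to 2590 to 2618 CPM, a ratio of 1.18. SNRP genes went from 980 to 1028 CPM to 1324 to 1405 CPM, a ratio of 1.35, and SF3A and SF3B genes from 1229 to 1246 CPM to 1566 to 1585 CPM, a ratio of 1.27. The summed SNRP level relative to the summed SR level was 0.427 to 0.469 with shCtrl and 0.511 to 0.537 with shGDPD5, with no overlap between the groups.

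**Figure D1:**
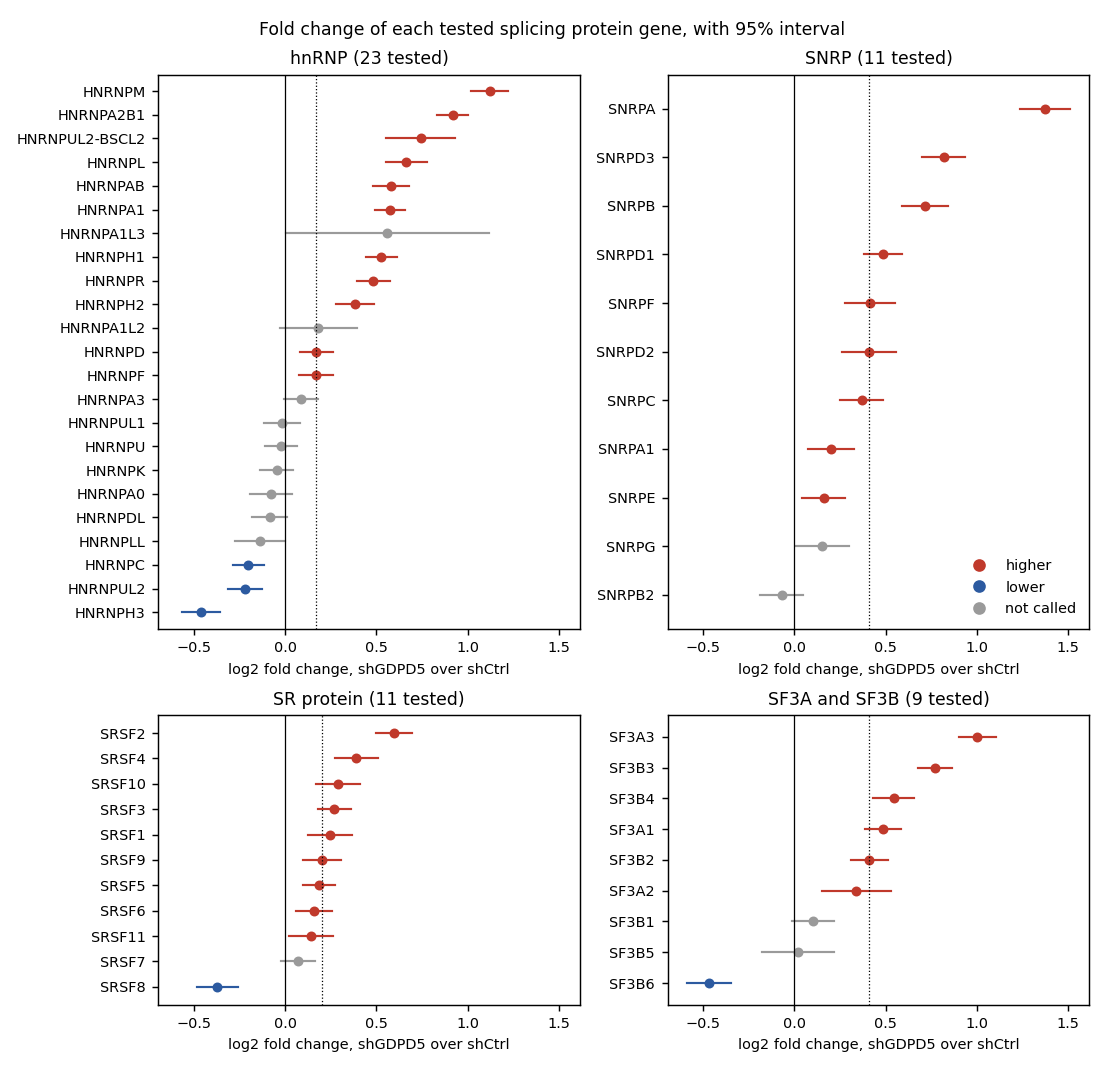
Log2 fold change of shGDPD5 over shCtrl (x axis) for each of the 54 tested genes, in 1 panel a class. Points are estimates from edgeR and lines their 95% intervals, red where higher, blue where lower and grey where not called at an adjusted p under 0.05. Dotted lines mark class medians of 0.20 (SR), 0.17 (hnRNP), 0.41 (SNRP) and 0.41 (SF3A and SF3B), and points on the left are few in every panel but that of the hnRNP genes.

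SNRPA, which encodes a protein that binds the U1 small nuclear RNA directly, had the largest log2 fold change of these genes. It lies on the plus strand of chromosome 19 (chr19:40750637-40765389, GENCODE release 29 on GRCh38). Its level was 27.4, 31.0 and 29.6 CPM with shCtrl and 77.3, 72.8 and 78.5 CPM with shGDPD5. Every shGDPD5 library thus lay far above every shCtrl library, and the log2 fold change was 1.38 (SE 0.063, 95% interval 1.24 to 1.51, adjusted p = 2.55e-09). SNRPC, which encodes another protein particular to the U1 snRNP, was at 60.6, 64.4 and 64.5 CPM against 79.3, 85.2 and 80.0 CPM, a log2 fold change of 0.37 (adjusted p = 7.42e-05). The genes of the U2-specific proteins had smaller fold changes. SNRPA1 rose by 0.20 on the log2 scale (adjusted p = 0.0103). The product of SNRPB2 binds that of SNRPA1 in the U2 snRNP, and SNRPB2 was at 96.7, 89.8 and 91.5 CPM against 85.3, 92.8 and 86.6 CPM, so that the groups overlapped (log2 fold change -0.07, adjusted p = 0.274).

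The Sm ring genes rose to unequal degrees, with 6 of 7 tested called higher and a median log2 fold change of 0.41. SNRPD3 (chr22:24555503-24609980, plus strand), which encodes SmD3, went from 59.4, 65.9 and 64.0 CPM to 108.8, 110.7 and 114.1 CPM (log2 fold change 0.82, SE 0.054, adjusted p = 6.31e-08). SNRPB (chr20:2461634-2470853, minus strand), whose splice forms encode SmB and SmB′, was at 118.0, 135.4 and 135.6 CPM and rose to 221.4, 209.0 and 208.4 CPM (log2 fold change 0.72, SE 0.058, adjusted p = 4.6e-07). These genes of the ring showed the largest differences, with no overlap between the groups. SNRPD1 followed at 118.9, 111.0 and 109.7 CPM against 158.6, 160.9 and 155.5 CPM (log2 fold change 0.48, adjusted p = 2.87e-06). SNRPF and SNRPD2 had log2 fold changes of 0.41 and 0.41 (adjusted p = 0.000124 and 0.000226). SNRPE had 0.16 (adjusted p = 0.0217), and its call was lost without any 1 of 4 libraries, with an adjusted p of up to 0.105. SNRPG, at 102.4, 96.5 and 95.4 CPM against 112.6, 117.0 and 97.3 CPM, did not pass (log2 fold change 0.15, adjusted p = 0.0667), and its lowest shGDPD5 library lay among the shCtrl libraries. The ring contains each of these proteins once, so that the transcripts of partners present in equal number differed in their fold changes.

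SNRPN, the imprinted relative of SNRPB on chromosome 15 (chr15:24823637-24978723, plus strand), had 0 counts in all 6 libraries. SNURF, which shares its exons, was also at 0, while SNHG14, a non-coding RNA of the same locus, had 37 to 52 counts. The row for SNRPN shares exonic bases with SNURF, and how the counting assigned shared reads is not given in the sources used here, so the value says that the row is listed at 0.

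The SF3A complex joins the U2 snRNP, and all 3 of its genes were higher. SF3A3 (chr1:37956975-37990921, minus strand) doubled, from 75.1, 79.3 and 77.5 CPM to 154.5, 156.2 and 154.0 CPM (log2 fold change 1.00, SE 0.046, 95% interval 0.90 to 1.10, adjusted p = 2.92e-09). SF3A1 had 116.3, 119.3 and 122.5 CPM against 164.1, 165.3 and 171.5 CPM (log2 fold change 0.48, adjusted p = 1.79e-06). SF3A2 was the least changed, with a log2 fold change of 0.34 (adjusted p = 0.00499). In each of these genes the groups did not overlap.

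The SF3B complex contacts the branch point, and its genes moved in both directions. SF3B3 (chr16:70523788-70577670, plus strand), which encodes a large scaffold protein of the complex, rose from 160.0, 152.3 and 153.3 CPM to 264.6, 263.6 and 266.4 CPM (log2 fold change 0.77, SE 0.043, adjusted p = 1.51e-08). SF3B4 and SF3B2, whose products bind each other and the RNA near the branch point, rose by log2 fold changes of 0.54 and 0.41 (adjusted p = 1.78e-06 and 8.24e-06). SF3B6 (chr2:24067584-24076443, minus strand), which encodes p14, the subunit that can be crosslinked to the branch point adenosine, fell from 115.8, 116.3 and 119.0 CPM to 87.3, 88.7 and 77.8 CPM (log2 fold change -0.47, SE 0.056, adjusted p = 1.44e-05). It was the 1 gene of the SNRP, SF3A and SF3B classes called lower. SF3B1, the largest subunit and the target of recurrent mutations in leukaemia, was at 451.2, 401.1 and 398.4 CPM against 438.0, 457.9 and 444.5 CPM and did not pass (log2 fold change 0.10, 95% interval -0.01 to 0.21, adjusted p = 0.12). Its shCtrl replicate 1 stood apart from the other shCtrl libraries, and without that library the log2 fold change was 0.16 (adjusted p = 0.00061, the range over the alternatives being 0.00061 to 0.382). SF3B5 was at 42.7, 56.4 and 55.5 CPM against 49.9, 52.7 and 54.4 CPM (log2 fold change 0.02, adjusted p = 0.853), and its sign turned without shCtrl replicate 1 or without shGDPD5 replicate 3, at -0.10 and -0.0090.

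**Figure D2:**
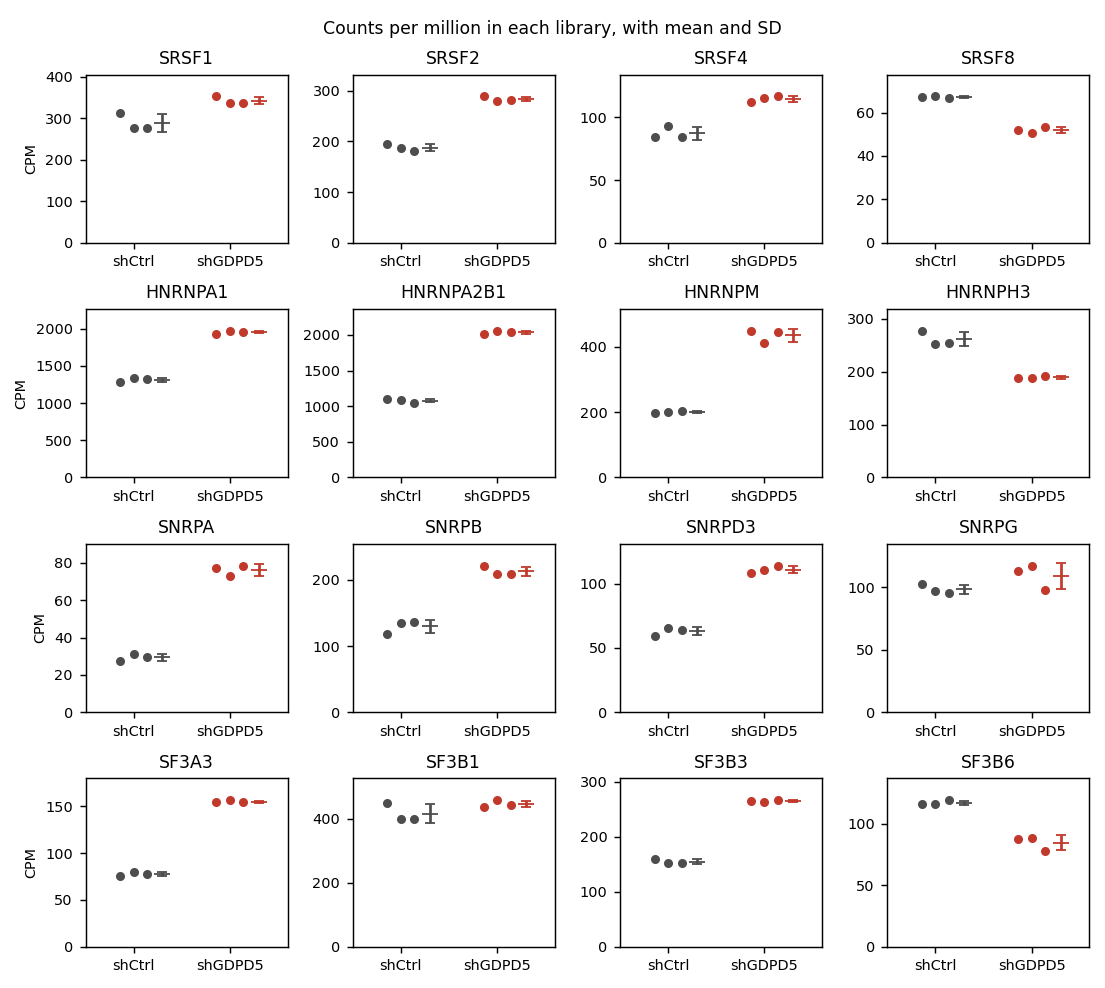
CPM (y axis, starting at 0) in each library for 16 genes, 4 from each class. Points are single libraries, grey for shCtrl and red for shGDPD5, and the bars beside them are the mean and SD of 3 libraries. SNRPA, HNRNPM and SF3A3 show group means apart by at least their control level, SRSF8, HNRNPH3 and SF3B6 lie lower with shGDPD5, and the groups overlap in SNRPG and SF3B1.

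Among hnRNP genes, HNRNPM (chr19:8444767-8489114, plus strand), a repressor and activator of alternative exons, rose most. It was at 197.4, 198.9 and 202.7 CPM with shCtrl and 447.4, 411.1 and 445.2 CPM with shGDPD5 (log2 fold change 1.12, SE 0.047, 95% interval 1.02 to 1.22, adjusted p = 1.16e-09). HNRNPA2B1 (chr7:26173057-26201529, minus strand) and HNRNPA1 (chr12:54280193-54287088, plus strand) encode closely related proteins that repress exons. With shGDPD5 they had the highest CPM of the class, whereas with shCtrl HNRNPC lay above HNRNPA2B1 in replicates 1 and 3. HNRNPA2B1 went from 1099, 1085 and 1050 CPM to 2019, 2053 and 2037 CPM (log2 fold change 0.92, SE 0.038, adjusted p = 1.2e-09). HNRNPA1 went from 1281, 1332 and 1320 CPM to 1935, 1969 and 1963 CPM (log2 fold change 0.58, SE 0.038, adjusted p = 6.23e-08). HNRNPA1 was thus above HNRNPA2B1 in every shCtrl library and below it in every shGDPD5 library. Divided by the length of 1 annotated transcript of each gene, which is 3664 bases for HNRNPA2B1 and 4121 bases for HNRNPA1, the mean levels were 294 and 318 CPM per kb with shCtrl and 556 and 475 CPM per kb with shGDPD5. The order on this scale depends on the transcript taken, which gene counts do not show.

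The other hnRNP genes that rose were HNRNPL, HNRNPAB, HNRNPH1, HNRNPR, HNRNPH2, HNRNPD, HNRNPF and the read-through row, with log2 fold changes between 0.17 and 0.74. HNRNPH1, which binds runs of guanines, was at 545.4, 546.3 and 531.6 CPM against 780.1, 774.8 and 785.2 CPM (log2 fold change 0.53, adjusted p = 1.81e-07). Its relatives lay on both sides of 0. HNRNPF and HNRNPH2 had log2 fold changes of 0.17 and 0.38, while HNRNPH3 (chr10:68331174-68343191, plus strand) fell from 277.0, 252.4 and 255.3 CPM to 188.6, 187.8 and 192.9 CPM (log2 fold change -0.46, SE 0.048, adjusted p = 4e-06). HNRNPH3 was the hnRNP gene with the most negative log2 fold change. A read-through row on the same strand, RPL36A-HNRNPH2, shares 16.3% of the exonic bases of HNRNPH2 and had 879 to 2017 counts. Its log2 fold change was -0.60 (adjusted p = 0.0103), so reads of HNRNPH2 and of that row may not have been told apart. They were not summed. HNRNPC, which encodes a core hnRNP protein binding runs of uridines, fell from 1111, 1076 and 1077 CPM to 931.8, 973.2 and 932.8 CPM (log2 fold change -0.20, SE 0.040, adjusted p = 0.000816), the smallest change among the genes called lower.

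Several of the most abundant hnRNP genes did not pass the test. HNRNPK, which binds runs of cytosines, was at 878.4, 830.5 and 841.8 CPM against 816.8, 844.6 and 809.0 CPM (log2 fold change -0.05, 95% interval -0.14 to 0.04, adjusted p = 0.358). HNRNPU, which binds chromatin and RNA as scaffold attachment factor A, was at 821.2, 793.0 and 784.1 CPM against 789.0, 776.9 and 793.5 CPM (log2 fold change -0.02, 95% interval -0.11 to 0.06, adjusted p = 0.629). In both genes the libraries of the groups overlapped. HNRNPA3, HNRNPUL1, HNRNPA0, HNRNPDL and HNRNPLL lay between -0.14 and 0.09 on the log2 scale and were also not called, although their groups did not overlap in HNRNPA3, HNRNPDL and HNRNPLL. HNRNPA1L2 and HNRNPA1L3, intron-poor copies of HNRNPA1, were low, at no more than 27.5 and 4.54 CPM, and share sequence with HNRNPA1, so their reads may not have been told apart from its own.

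HNRNPUL2 fell in its own row, from 214.5, 218.5 and 215.3 CPM to 181.8, 187.5 and 187.3 CPM (log2 fold change -0.22, adjusted p = 0.000644). The read-through row HNRNPUL2-BSCL2, with which it shares 44.2% of its exonic bases on the same strand, rose from 38.6, 47.3 and 40.6 CPM to 77.5, 63.1 and 71.3 CPM (log2 fold change 0.74, adjusted p = 1.15e-05). Summed, both rows gave a log2 fold change of -0.01 (adjusted p = 0.828, the range over the alternatives being 1.74e-05 to 0.828), so the lower level of HNRNPUL2 was not called once these rows were counted as 1 gene. The read-through row also shares 40.2% of its exonic bases with BSCL2 on the same strand. BSCL2 rose (log2 fold change 1.36, adjusted p = 4.52e-07), and its reads may be in the read-through row. The sum therefore does not show whether HNRNPUL2 itself fell.

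The SR protein genes called higher lay between 0.14 and 0.60 on the log2 scale. SRSF2 (chr17:76734115-76737374, minus strand), which encodes SC35 and is known for recurrent mutations in myeloid disease, rose most, from 194.2, 187.1 and 181.3 CPM to 288.7, 280.0 and 281.8 CPM (log2 fold change 0.60, SE 0.044, adjusted p = 2.04e-07). MFSD11, on the opposite strand, shares 36.7% of the exonic bases of SRSF2, had 360 to 783 counts per library and rose as well (log2 fold change 0.93). Because the use of strand in counting is not given in the sources used here, reads of these genes cannot be told apart. SRSF4 followed at 84.1, 93.4 and 84.6 CPM against 111.9, 115.2 and 116.6 CPM (log2 fold change 0.39, SE 0.054, adjusted p = 4.56e-05). SRSF3, the smallest SR protein and a regulator of its own transcript, was at 294.1, 306.7 and 301.2 CPM against 368.4, 361.8 and 357.7 CPM (log2 fold change 0.27, adjusted p = 0.000111). SRSF10, which acts as a repressor when dephosphorylated, rose by 0.29 on the log2 scale (adjusted p = 0.0007).

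SRSF1 (chr17:58003360-58007346, minus strand), the founding SR protein and an oncogene in several tissues, rose from 313.4, 276.5 and 275.7 CPM to 352.2, 337.4 and 336.6 CPM (log2 fold change 0.25, SE 0.054, adjusted p = 0.00183). An overlapping coding row on the same strand, ENSG00000266086, shares 56.6% of the exonic bases of SRSF1, had 1057 to 2210 counts and a log2 fold change of 0.76, and with both rows summed the log2 fold change was 0.36 (adjusted p = 5.11e-05, the range over the alternatives being 6.9e-06 to 0.0144). SRSF9, SRSF5 and SRSF6 had log2 fold changes of 0.20, 0.19 and 0.16 (adjusted p = 0.00289, 0.00154 and 0.00972). GATC, on the opposite strand, shares 46.2% of the exonic bases of SRSF9 and had 984 to 1116 counts, so reads of these genes cannot be told apart either. SRSF11 was the weakest call at 0.14 (adjusted p = 0.0461), with overlapping groups, and was not called under 8 of the 16 alternative settings, where the adjusted p ranged from 0.0581 to 0.202. SRSF7 was at 135.6, 134.7 and 134.9 CPM against 140.7, 141.8 and 142.8 CPM and did not pass (log2 fold change 0.07, 95% interval -0.02 to 0.16, adjusted p = 0.183), although every shGDPD5 library lay above every shCtrl library.

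SRSF8 (chr11:95067197-95071224, plus strand), a gene with a single exon that arose as a copy of SRSF2, was the 1 SR protein gene that fell, from 67.3, 67.4 and 66.7 CPM to 52.0, 50.5 and 53.1 CPM (log2 fold change -0.37, SE 0.051, adjusted p = 4.3e-05). It went against SRSF2 although their proteins are close relatives. SRSF12 had at most 1 count in any library and was not tested. Likewise HNRNPCL1 had at most 1 count and HNRNPCL2, HNRNPCL3 and HNRNPCL4 had 0 counts in every library. In the 1 annotated transcript taken for each gene, 4 tested genes had a single exon, SRSF8, SF3B5, HNRNPA0 and HNRNPA1L2. Other transcripts may differ in exon number. Of those 4 genes 0 were called higher and 1 was called lower, against 35 higher and 4 lower of the 50 genes with more exons. This split was made after the values were seen and was not tested.

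Ratios of counts between partners within 1 library do not depend on the scaling between libraries. The 6 pairs below were chosen after the values of their genes were seen, so their ratios are a description. SNRPA to SNRPC, both U1 proteins, was 0.452, 0.482 and 0.458 with shCtrl and 0.974, 0.855 and 0.981 with shGDPD5. SF3B3 to SF3B6, both of the SF3B complex, was 1.38, 1.31 and 1.29 against 3.03, 2.97 and 3.42. SNRPD3 to SNRPE, both of the Sm ring, was 0.601, 0.688 and 0.706 against 0.996, 1.02 and 1.14. In each pair the lowest shGDPD5 ratio lay above the highest shCtrl ratio. Among hnRNP genes, HNRNPA2B1 to HNRNPC went from 0.991 ± 0.017 to 2.15 ± 0.039 (SD, n = 3), and HNRNPM to HNRNPH3 from 0.765 ± 0.045 to 2.29 ± 0.093 (SD, n = 3). SRSF2 to SRSF8 went from 2.80 ± 0.086 to 5.47 ± 0.14 (SD, n = 3).

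**Figure D3:**
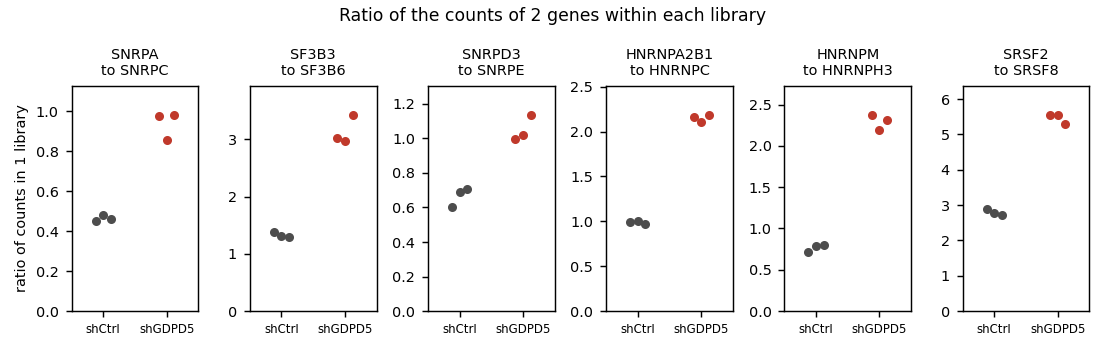
Ratio of the counts of 2 genes (y axis, starting at 0) within each library for 6 pairs from the same complex or class. Points are single libraries, grey for shCtrl and red for shGDPD5, and in every pair all red points lie above all grey points.

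Promoters of 6 genes are shown, from the largest change of the SNRP class to genes that fell. RefSeq promoters on GRCh38.p14, each of 300 bases with 250 before and 50 after a start, were given for 54 of the 60 genes, and no entry matched HNRNPA1, HNRNPA1L3, HNRNPCL3, SF3B3, SNRPD1 and SRSF2. Letters were searched on both strands for CCGGAAG (the core bound by ETS factors), CACGTG (an E-box), TTTCCCGC, TTTGGCGC or TTTCGCGC (E2F) and TATAAA, which do not contain each other. SNRPA, with the largest log2 fold change, holds none of these letters, SNRPB holds ETS and E2F letters, SF3A3 holds the ETS letters at 2 places, SF3B6 holds them at 3 places although it fell, HNRNPM holds an E-box, and SRSF8, the poorest of these 6 in G and C at 38.0%, holds none. In the sequences the matched letters are in capitals, and each runs 5′ to 3′ along the strand of the gene.
SNRPA, chr19:40750953-40751252, plus strand: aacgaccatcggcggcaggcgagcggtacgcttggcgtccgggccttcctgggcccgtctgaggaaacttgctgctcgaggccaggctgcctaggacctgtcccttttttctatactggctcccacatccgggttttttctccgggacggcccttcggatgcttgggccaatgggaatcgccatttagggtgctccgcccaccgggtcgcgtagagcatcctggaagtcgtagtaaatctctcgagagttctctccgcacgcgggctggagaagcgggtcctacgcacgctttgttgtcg
SNRPB, chr20:2470740-2471039, minus strand: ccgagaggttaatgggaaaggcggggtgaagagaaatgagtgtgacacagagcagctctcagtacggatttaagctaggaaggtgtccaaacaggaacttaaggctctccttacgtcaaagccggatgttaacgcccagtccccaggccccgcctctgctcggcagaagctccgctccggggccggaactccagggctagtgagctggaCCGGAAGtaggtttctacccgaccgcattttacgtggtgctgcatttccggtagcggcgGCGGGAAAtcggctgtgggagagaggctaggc
SF3A3, chr1:37989973-37990272, minus strand: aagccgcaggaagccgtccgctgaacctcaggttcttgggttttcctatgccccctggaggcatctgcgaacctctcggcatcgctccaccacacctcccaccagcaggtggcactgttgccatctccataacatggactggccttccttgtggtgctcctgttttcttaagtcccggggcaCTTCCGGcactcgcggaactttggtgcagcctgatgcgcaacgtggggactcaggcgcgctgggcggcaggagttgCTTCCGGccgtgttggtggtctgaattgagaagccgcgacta
SF3B6, chr2:24076277-24076576, minus strand: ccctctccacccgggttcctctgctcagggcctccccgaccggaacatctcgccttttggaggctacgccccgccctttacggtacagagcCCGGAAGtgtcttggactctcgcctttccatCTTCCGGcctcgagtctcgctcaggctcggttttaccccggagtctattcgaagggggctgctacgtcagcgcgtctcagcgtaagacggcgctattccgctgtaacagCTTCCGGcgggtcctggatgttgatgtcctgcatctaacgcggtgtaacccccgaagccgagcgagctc
HNRNPM, chr19:8444725-8445024, plus strand: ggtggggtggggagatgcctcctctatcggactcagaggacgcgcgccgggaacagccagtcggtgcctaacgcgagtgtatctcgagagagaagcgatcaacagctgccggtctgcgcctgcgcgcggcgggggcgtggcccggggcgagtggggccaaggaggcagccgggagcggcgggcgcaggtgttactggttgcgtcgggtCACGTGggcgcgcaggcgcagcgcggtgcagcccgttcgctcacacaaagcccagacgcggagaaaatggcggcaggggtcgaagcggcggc
SRSF8, chr11:95066669-95066968, plus strand: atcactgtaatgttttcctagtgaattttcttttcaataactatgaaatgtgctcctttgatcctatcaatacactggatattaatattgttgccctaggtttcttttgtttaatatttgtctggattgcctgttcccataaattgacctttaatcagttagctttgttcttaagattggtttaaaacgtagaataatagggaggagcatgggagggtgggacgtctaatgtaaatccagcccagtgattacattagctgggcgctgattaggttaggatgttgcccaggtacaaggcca

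ETS letters were found in at least 1 listed promoter of 7 of 11 SNRP genes (63.6%) and of 6 of 8 SF3A and SF3B genes (75.0%). They were found in 2 of 11 SR protein genes (18.2%) and in 3 of 24 hnRNP genes (12.5%). Over all 10422 tested protein-coding genes with a listed promoter the share was 22.3%, and over all 27305 genes with a listed promoter 12.2%. The letters were thus more frequent in the snRNP classes than in the SR and hnRNP classes. Among genes with a promoter, 14 of 31 called higher, 1 of 5 called lower and 3 of 13 not called held them. The E-box letters were found in 7 of 24 hnRNP genes (29.2%) and in 0 of 11 SNRP and 0 of 11 SR protein genes, against 12.5% of the tested protein-coding genes. E2F letters were found in 5 of 54 genes, against 5.62% of the tested protein-coding genes. The TATAAA letters were found in 3 of 11 SR protein genes (27.3%), 3 of 24 hnRNP genes (12.5%), 1 of 11 SNRP genes and 0 of 8 SF3A and SF3B genes, against 8.40% of the tested protein-coding genes. A match is a run of letters and not a shown binding site. The class shares include genes that were not tested, such as SNRPN and SRSF12. A gene counted if any of its listed promoters matched, and the number of promoters differed between sets. It was 19 for 11 SNRP genes, 9 for 8 SF3A and SF3B genes, 14 for 11 SR protein genes and 35 for 24 hnRNP genes. The 10422 tested protein-coding genes had 15302.

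Within 1000 bases of their start, 15 genes (leaving aside the read-through row) have a coding gene that runs the other way. HNRNPA2B1 and CBX3, and HNRNPA1 and CBX5, pair an hnRNP A gene with a gene of heterochromatin protein 1. CBX3 had a log2 fold change of 0.55 beside 0.92 for HNRNPA2B1, and CBX5 one of 0.38 beside 0.58 for HNRNPA1. FAM228B was lower (log2 fold change -1.03), as was its neighbour SF3B6, and ACTMAP was lower (-0.29, adjusted p = 0.0136) beside the higher SNRPA. Of the 9 such pairs with both genes called, 6 moved in the same direction and 3 in opposite directions. The same split over all genes with such a neighbour was not counted, so the numbers are a description. Some pairs share exonic bases on opposite strands, such as HNRNPA2B1 and CBX3 (368 bases) and SNRPA and ACTMAP (89 bases). As the use of strand in counting is not given, reads of such pairs may not have been told apart.

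Genes that act with these classes were counted from lists of the same machinery, to be read beside the 29.7% of all genes called higher and the 30.1% called lower. Of these, U5 and tri-snRNP factors had the highest median, with 10 of 13 tested higher, 0 lower and a median log2 fold change of 0.54. In this list DDX23, a helicase of the tri-snRNP, was at 1.01 on that scale (adjusted p = 1.18e-08), and PRPF8, which lies at the catalytic centre, was at 0.68 (adjusted p = 2.81e-08). Of snRNP proteins with SNRNP symbols 5 of 7 were higher and 1 was lower, with SNRNP200, the helicase that unwinds U4 from U6, at 0.67 and SNRNP25, a protein of the minor spliceosome, at 1.34. Of LSm proteins 5 of 10 were higher and 0 were lower, led by LSM3 at 0.96 and LSM4 at 0.56, both of the ring on U6. The list also holds LSM1 of the cytoplasmic decay ring and LSM10 and LSM11 of the U7 snRNP, of which LSM11 was among the 5.

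Lists of factors that load or modify these proteins had lower medians than the U5 and tri-snRNP list. Of the SMN and PRMT5 complexes, which assemble Sm rings, 6 of 13 were higher and 1 was lower, with a median of 0.16, and the 2 with the smallest adjusted p were GEMIN4 (0.59) and PRMT5 (0.46). Of the SR protein kinases 2 of 6 tested were higher, CLK2 at 0.53 (adjusted p = 6.52e-06) and CLK1 at 0.16 (adjusted p = 0.0469), and 0 were lower, a share called higher of 33.3% and so near that of all genes. Of the factors of the 3′ splice site and SR-related proteins 6 of 11 were higher and 2 were lower, with SRRM2 at 0.46 and U2AF2 at 0.66. Other exon regulators, such as PTB proteins, split into 7 of 10 higher and 3 lower, among them RBMX at 0.55 and MBNL2 at -1.10. Of nonsense-mediated decay factors 6 of 10 were higher and 2 were lower, with SMG5 at 0.53 and SMG9 at 0.67. The G1/S genes described above had a median of 1.52, above that of every splicing list.

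**Figure D4:**
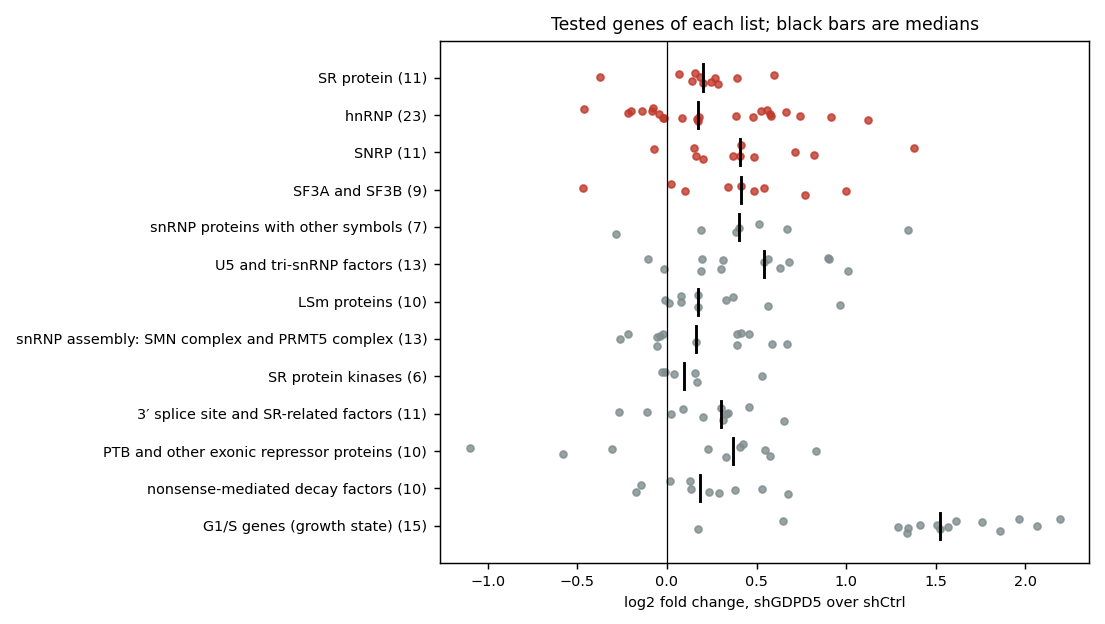
Log2 fold change of shGDPD5 over shCtrl (x axis) for the tested genes of each class (red) and of the other lists (grey), with the number tested in brackets and black bars at the medians. Points are genes, spread vertically only to separate them. The medians of the 4 classes lie between 0.17 and 0.41, that of U5 and tri-snRNP factors at 0.54 and that of G1/S genes at 1.52.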

How the data were processed

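RNA-seq of 6 HCT116 libraries, 3 shCtrl and 3 shGDPD5 by the labels, was analysed from 1 table of estimated counts per gene that the authors deposited. For the aligner, counting tool, strand and build, nothing is given in the sources used here. Estimated counts were rounded to whole numbers, changing a value by at most 0.5. After the default filter of edgeR 4.0.16 (minimum count 10) in R 4.3.3, 16755 of 79302 genes were tested with TMM factors, the quasi-likelihood test and Benjamini-Hochberg adjustment over all of them. Every adjusted p given is from this test unless an alternative is named, and called means an adjusted p under 0.05. Totals of 16715522 to 18510728 counts set the precision, and the common biological coefficient of variation was 0.0555. The test was also run on simulated counts with few changed genes and a common coefficient of variation. In the real data most genes were called, so that run cannot show the error rate of these calls.

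Genes and lists were chosen with earlier results of these data known. Genes named by rule were 15 set members and, in each class, those with the smallest adjusted p and the extreme fold changes, and up to 2 genes of each list. Other members and the neighbouring genes were named after their values were seen, so that every member is accounted for. Coordinates are from GENCODE release 29 on GRCh38, matched by identifier. Protein sequences were not used here, so the planned protein features were left out. As alternatives, factors by RLE or upper quartile, DESeq2 1.42.0, voom of limma 3.58.1, no filter, a stricter filter, a replicate block, each library left out, counts summed with those of pseudogenes and, chosen after seeing the data, 2 genes summed with their overlapping rows were tried.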

Additional observations from a re-analysis of the deposited data

How the results depend on the processing

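The counts of called genes in each class stayed within 1.5 times their value under all 16 alternatives. Of the 40 called genes, 35 kept sign and call in every alternative. The other 5 were SRSF6, SRSF11, SNRPA1, SNRPE and HNRNPUL2, and 6 genes were called only in an alternative. With each library left out in turn, the median log2 fold change ranged from 0.1778 to 0.232 for SR protein genes, 0.157 to 0.1916 for hnRNP genes, 0.3347 to 0.438 for SNRP genes and 0.3755 to 0.4411 for SF3A and SF3B genes, and that of SF3B5 from -0.1004 to 0.08656. The median of SR protein genes was 0.1848 with no filter and 0.2163 with upper quartile factors. SNRPG was called with upper quartile factors (adjusted p = 0.0448, the range over the alternatives being 0.0111 to 0.312) and without shCtrl replicate 1 or shGDPD5 replicate 3. Without shCtrl replicate 1, SF3B1, HNRNPA1L2, HNRNPA3 and HNRNPA0 were called as well (adjusted p = 0.00061, 0.0186, 0.0108 and 0.021). The causes were not tested.

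Same-numbered libraries did not deviate together (correlations -0.103, -0.040 and 0.000795), and between different numbers the correlations ranged from -0.094 to 0.113. These values give no sign of pairing by number, but they cannot show whether libraries were prepared together. With a replicate block 4792 genes were higher and 4853 lower, against 4971 and 5035 without it, and of the SR protein genes 8 were higher. Adding pseudogene counts changed no call of a splicing protein gene, and 31 genes had such rows, with at most 0.534% of the counts of the gene. Gene counts hold no information on isoforms, and genes of few counts, such as HNRNPA1L3, are limited by depth.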
